A study of Mus musculus with 14 samples.

Results

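Cartilage is held together by a hydrated network of proteoglycans and adaptor proteins, and its mineralisation is restrained by secreted inhibitors. Of 10 listed non-collagen genes of cartilage and bone, 8 were matched through the platform annotation to a probe set of 1 gene, among 19935 genes measured in all: Sox9, Sox5, Sox6, Acan, Hapln1, Comp, Matn2 and Mgp. Each of the 8 had 1 probe set, so the rule of taking the probe set with the highest mean changed nothing. Runx2 and Spp1 are not analysed here.

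Embryonic fibroblasts of ICR mice were kept in a medium made for embryonic stem cells. They received SKO with HDAC7, SKO with MEF2C, SKO with the empty vector Flag, or GFP alone, and were lysed at day 10 or day 6. SKO is not spelled out in the labels and is used here as they give it. The 3 SKO groups had 2 arrays per day, numbered 1 and 2, and GFP had 1 array per day, which gives 14 arrays in 8 groups. Nothing in the labels says that numbered arrays came from separate cultures, so p-values measure the spread between arrays, which may be technical. The labels' protocols state that feeders were taken away before lysis, and a free-text description on every array that names a pre-iPSC sample was not used.

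The SOX9 transcription factor specifies chondrocytes, and in the mouse it acts with SOX5 and SOX6 on Col2a1 and Acan. Aggrecan, the product of Acan, binds hyaluronan, and the link protein encoded by Hapln1 stabilises that bond. Cartilage oligomeric matrix protein (Comp) is a thrombospondin that binds collagens, matrilin 2 (Matn2) is an adaptor of the matrix of many tissues, and matrix Gla protein (Mgp) is a vitamin K-dependent inhibitor of calcification. In mouse growth plates MEF2C promotes chondrocyte hypertrophy, and the class IIa deacetylase HDAC4 opposes it. Embryonic fibroblasts are mesenchymal cells and express several of these genes without being cartilage.

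The values are expression levels on the log2 scale, with array medians of 5.68 to 5.76. No detection calls were used, so it is unknown whether a value below the median of its array exceeds background, and levels are not compared between genes. Differences were tested with limma over all 19935 genes, and a gene counts as called where its p, adjusted by Benjamini-Hochberg, is under 0.05. GFP, with 1 array per day, is assumed to vary like the other groups. Hdac7 was higher in SKO+HDAC7 cells than in SKO+Flag cells by 4.28 ± 0.06 (SE), Mef2c in SKO+MEF2C by 3.07 ± 0.07, and Pou5f1 in SKO+Flag than in GFP cells by 6.75 ± 0.07. Of 5 listed transduced factors, Hdac7 and Mef2c among them, Pou5f1 alone was called higher in SKO+Flag than in GFP cells, and 1 was lower. Among all genes 17.5% were higher and 18.2% lower in that comparison. Sox2 lay below the array median on 14 of 14 arrays, and whether its probes cover the transduced part was not tested. Of 12 fibroblast markers, Fap lay below the median on 14 of 14 arrays and Lum on 4, and the other markers lay above it on every array. Of 10 chondrocyte markers, Col2a1, Col9a1, Col9a2, Col9a3 and Col11a2 lay above the median on 14 of 14 arrays, Col10a1 and Cnmd lay below it on 5 and 10 arrays, and Matn1, Matn3 and Snorc on all 14. Of 6 measured osteoblast markers, Alpl lay above the median on 14 of 14 arrays, Dmp1 lay below it on 13, and Sp7, Ibsp, Phex and Mepe on all 14.

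The plot of levels on each array shows how the 8 genes differed among vectors. Mgp, Hapln1 and Sox6 were lower with HDAC7, Acan, Hapln1 and Mgp were higher with MEF2C, and Sox9, Sox5, Comp and Matn2 differed between SKO+Flag and GFP but were not called with either added factor. Of the 8 genes, 3 fell and 0 rose in SKO+HDAC7 against SKO+Flag as the mean of both days (4 arrays each), where 10.9% of all genes were called, 6.06% lower and 4.83% higher. At an unadjusted p under 0.05 the counts were also 3 lower and 0 higher. In SKO+MEF2C against SKO+Flag 3 rose and 0 fell, where 10.3% of all genes were called, 5.49% higher and 4.82% lower. At an unadjusted p under 0.05 the counts were 3 higher and 1 lower. In SKO+Flag against GFP 5 fell and 2 rose, where 35.7% of all genes were called, 18.2% lower and 17.5% higher. The median difference of the 8 genes was -0.05 with HDAC7, 0.08 with MEF2C and -0.46 in SKO+Flag against GFP, against 0.02, 0.01 and -0.04 over all genes. The arrays measure whole cultures, in which fewer cells of a type and less RNA per cell cannot be told apart.

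**Figure D1:**
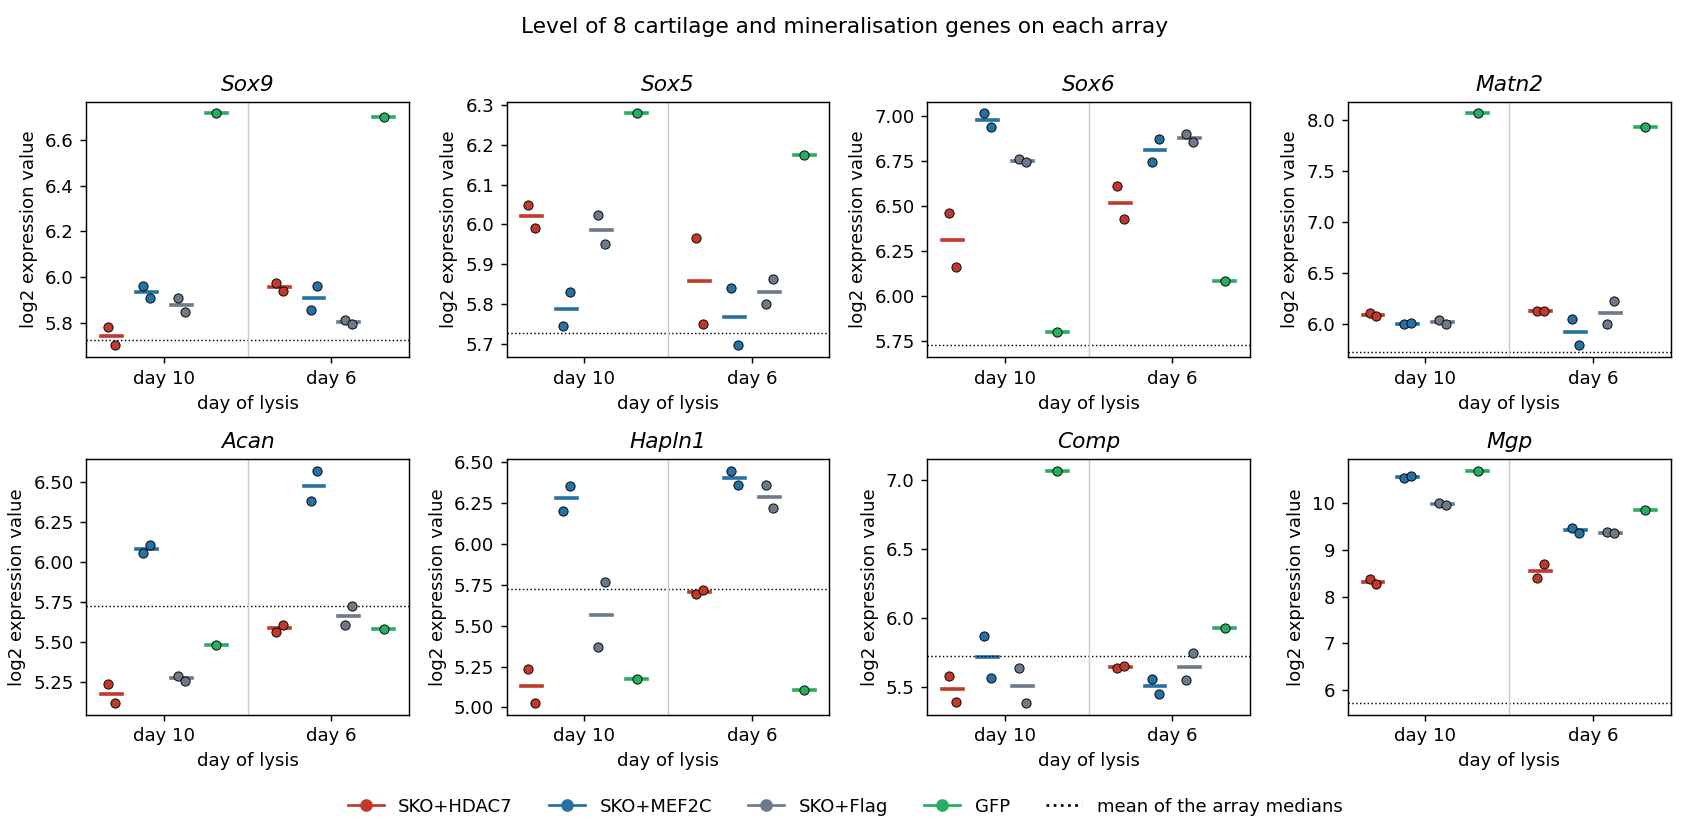
The log2 expression value of each of the 8 genes (y axis, own scale per gene) is plotted for every array, day 10 left of day 6, with a bar at the mean of each group and a dotted line at the mean of the array medians. Mgp lies far above the median line on every array, whereas Comp lies below its array's median on 10 of 14 arrays.

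**Figure D2:**
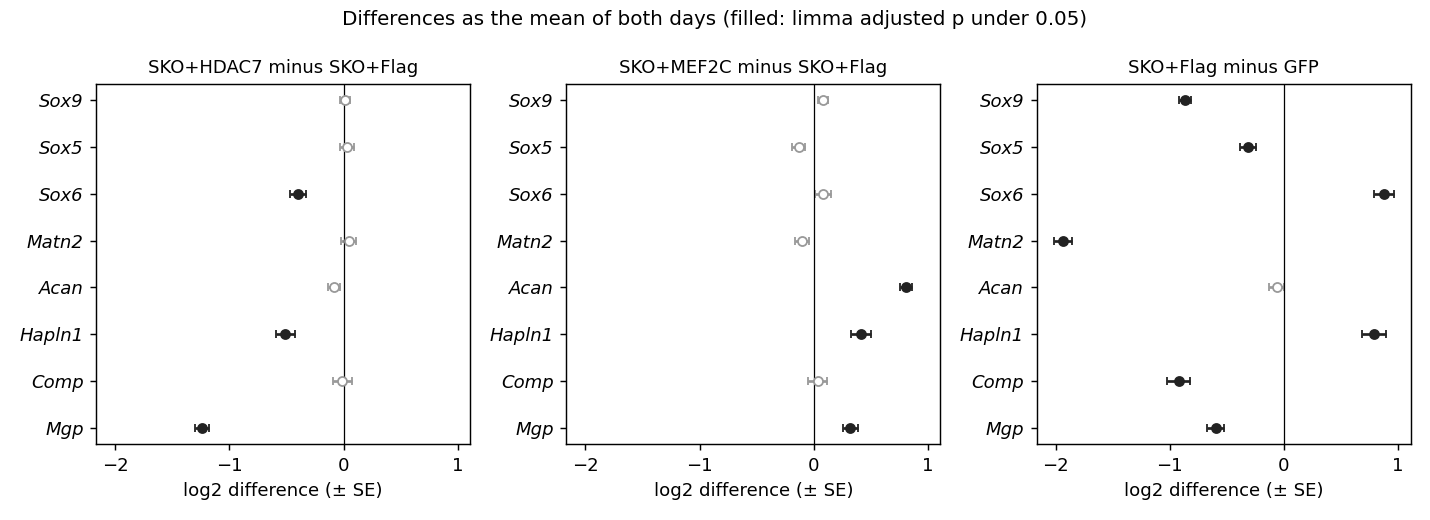
Each point is the log2 difference between 2 groups as the mean of both days, with its standard error, and filled points have a limma adjusted p under 0.05. Mgp, Hapln1 and Sox6 are the filled points left of 0 for HDAC7, and Acan, Hapln1 and Mgp the filled points right of 0 for MEF2C.

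Sox9, the master regulator of chondrocyte fate, was lower in every SKO group than in GFP cells and did not pass the test with either added factor. Its level was 5.78 and 5.70 at day 10 and 5.97 and 5.94 at day 6 in SKO+HDAC7. In SKO+MEF2C it lay at 5.96 and 5.91 at day 10 and 5.86 and 5.96 at day 6, and in SKO+Flag at 5.91 and 5.85 at day 10 and 5.81 and 5.79 at day 6. Both GFP arrays were higher, with levels of 6.72 at day 10 and 6.70 at day 6. All 12 SKO arrays were thus below both GFP arrays, while the SKO groups overlapped one another. Sox9 was 1.82-fold lower in SKO+Flag cells than in GFP cells (log2 difference -0.87 ± 0.05, adjusted p = 2.02e-07). As the mean of both days it differed from SKO+Flag by 0.01 ± 0.04 in SKO+HDAC7 (adjusted p = 0.934) and by 0.08 ± 0.04 in SKO+MEF2C (adjusted p = 0.32). The HDAC7 mean joins opposite day differences of -0.14 ± 0.06 at day 10 (adjusted p = 0.246) and 0.15 ± 0.06 at day 6 (adjusted p = 0.192), and on neither day did the arrays of the 2 groups overlap. The change between days was -0.29 ± 0.09 and did not pass the test (limma adjusted p = 0.229).

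Sox5 and Sox6, which encode the SOXD partners of SOX9, went opposite ways between SKO+Flag and GFP. Sox5 lay at 6.05 and 5.99 at day 10 and 5.97 and 5.75 at day 6 in SKO+HDAC7, and at 5.75 and 5.83 at day 10 and 5.84 and 5.70 at day 6 in SKO+MEF2C. Its level was 6.02 and 5.95 at day 10 and 5.80 and 5.86 at day 6 in SKO+Flag, and at 6.28 at day 10 and 6.17 at day 6 with GFP. Every SKO array was below both GFP arrays, by a small margin. The difference between SKO+Flag and GFP was -0.32 ± 0.07 (adjusted p = 0.00452), and neither HDAC7 (0.03 ± 0.06, adjusted p = 0.804) nor MEF2C (-0.13 ± 0.06, adjusted p = 0.209) passed the test against SKO+Flag. The day 6 call against GFP (-0.34 ± 0.10, adjusted p = 0.0289) was lost without SKO+Flag day 6 replicate 1 (-0.31). It was also lost with median centring (-0.30, adjusted p = 0.0517) and in a fit to the compared groups alone (adjusted p = 0.0535).

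Sox6 was higher in SKO+Flag cells than in GFP cells, and HDAC7 lay between them. Its level was 6.46 and 6.16 at day 10 and 6.61 and 6.43 at day 6 in SKO+HDAC7, and at 7.02 and 6.94 at day 10 and 6.75 and 6.88 at day 6 in SKO+MEF2C. In SKO+Flag it lay at 6.76 and 6.74 at day 10 and 6.90 and 6.86 at day 6, and with GFP at 5.80 at day 10 and 6.08 at day 6. The SKO+HDAC7 arrays did not overlap those of any other vector. Sox6 was 1.32-fold lower in SKO+HDAC7 cells than in SKO+Flag cells (-0.40 ± 0.07, adjusted p = 0.00359) and 1.40-fold lower than in SKO+MEF2C cells (-0.48 ± 0.07, adjusted p = 0.000421). It was 1.83-fold higher in SKO+Flag cells than in GFP cells (0.87 ± 0.08, adjusted p = 8.89e-06) and 1.39-fold higher in SKO+HDAC7 cells than in GFP cells (0.47 ± 0.08, adjusted p = 0.000997). The MEF2C difference from SKO+Flag was 0.08 ± 0.07 (adjusted p = 0.59). By day, the HDAC7 difference was -0.44 ± 0.10 at day 10 (adjusted p = 0.0194) and -0.36 ± 0.10 at day 6 (adjusted p = 0.0661). The day 10 call was lost without SKO+Flag day 10 replicate 1 (-0.43) or replicate 2 (-0.45). Leaving out SKO+HDAC7 day 10 replicate 2 (-0.29) or fitting the compared groups alone (adjusted p = 0.123) also lost it.

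Acan, which encodes the large proteoglycan that gives cartilage its resistance to compression, was higher with MEF2C than with each of the 3 other vectors. Its level was 6.06 and 6.11 at day 10 and 6.38 and 6.57 at day 6 in SKO+MEF2C. Its level was 5.24 and 5.12 at day 10 and 5.56 and 5.61 at day 6 in SKO+HDAC7, and at 5.29 and 5.26 at day 10 and 5.60 and 5.73 at day 6 in SKO+Flag. With GFP its level was 5.48 at day 10 and 5.58 at day 6. The 4 SKO+MEF2C arrays were above all 10 other arrays. The 10 others lay below their array medians, where detection is unknown. Acan was 1.75-fold higher in SKO+MEF2C cells than in SKO+Flag cells (0.81 ± 0.05, adjusted p = 6.26e-06), with the same difference of 0.81 ± 0.08 at day 10 (adjusted p = 0.000117) and at day 6 (adjusted p = 0.000301, where 3.10% of all genes were called). It was 1.68-fold higher in SKO+MEF2C cells than in GFP cells (0.75 ± 0.07, adjusted p = 5.03e-06). SKO+HDAC7 against SKO+Flag (-0.09 ± 0.05, adjusted p = 0.357) and SKO+Flag against GFP (-0.06 ± 0.07, adjusted p = 0.517) did not pass the test.

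Hapln1, the link protein that joins aggrecan to hyaluronan, was lower with HDAC7, higher with MEF2C, and higher in SKO+Flag cells than in GFP cells. Its level was 5.23 and 5.03 at day 10 and 5.69 and 5.72 at day 6 in SKO+HDAC7, and at 6.20 and 6.35 at day 10 and 6.45 and 6.36 at day 6 in SKO+MEF2C. In SKO+Flag it lay at 5.37 and 5.77 at day 10 and 6.36 and 6.22 at day 6, and with GFP at 5.17 at day 10 and 5.10 at day 6. Both SKO+HDAC7 and GFP lay below the array median on every array, whereas SKO+MEF2C lay above it. Over both days SKO+Flag overlapped SKO+HDAC7 and SKO+MEF2C, and SKO+HDAC7 overlapped neither SKO+MEF2C nor the day 6 SKO+Flag arrays. The difference of SKO+HDAC7 from SKO+Flag was -0.51 ± 0.08 (1.43-fold, adjusted p = 0.00279), that of SKO+MEF2C was 0.41 ± 0.08 (1.33-fold, adjusted p = 0.00964), and SKO+HDAC7 was 1.90-fold lower than SKO+MEF2C (-0.92 ± 0.08, adjusted p = 1.49e-05). SKO+MEF2C was 2.30-fold above GFP (1.20 ± 0.10, adjusted p = 4.13e-06), and SKO+Flag 1.73-fold (0.79 ± 0.10, adjusted p = 0.000107). SKO+HDAC7 against GFP did not pass the test (0.28 ± 0.10, adjusted p = 0.0622), but passed without SKO+HDAC7 day 10 replicate 2 (0.33). It also passed with an intensity-dependent robust prior (adjusted p = 0.0485), quantile normalization (adjusted p = 0.0457) and array weights (adjusted p = 0.042). A fit to the compared groups alone gave an adjusted p of 0.0216.

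By day, the Hapln1 difference between SKO+MEF2C and SKO+Flag was 0.71 ± 0.12 at day 10 (adjusted p = 0.00454) and 0.12 ± 0.12 at day 6 (adjusted p = 0.789). The day 10 call was lost in a fit to the compared groups alone (adjusted p = 0.0771). The change of the MEF2C effect between days was 0.60 ± 0.17 (adjusted p = 0.384), so the days were not shown to differ. Without SKO+Flag day 10 replicate 2 that change was 0.79 (adjusted p = 0.032), and without SKO+MEF2C day 10 replicate 2 the day 10 difference was 0.63 (adjusted p = 0.0503). The HDAC7 difference was -0.44 ± 0.12 at day 10 (adjusted p = 0.053) and -0.59 ± 0.12 at day 6 (adjusted p = 0.0207). At day 10 it was -0.63 without SKO+Flag day 10 replicate 1 (adjusted p = 0.00578). The day 6 call was lost without SKO+Flag day 6 replicate 1 (-0.51, adjusted p = 0.131) or replicate 2 (-0.66, adjusted p = 0.056), and without SKO+HDAC7 day 6 replicate 1 (-0.57, adjusted p = 0.122) or replicate 2 (-0.60, adjusted p = 0.0798). Against GFP, the SKO+Flag difference of Hapln1 was 0.39 ± 0.15 at day 10 (adjusted p = 0.0725) and 1.19 ± 0.15 at day 6 (adjusted p = 0.000124). At day 10 it was 0.59 without SKO+Flag day 10 replicate 1 (adjusted p = 0.004). The change between days was -0.79 ± 0.21 (adjusted p = 0.0559), and without SKO+Flag day 10 replicate 2 it was -0.99 (adjusted p = 0.00528). The 2 SKO+Flag arrays of day 10 lay 0.28 apart as an SD (n = 2), the widest replicate spread among the 8 genes.

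Acan and Hapln1, whose products bind each other through hyaluronan and which both rose with MEF2C, each have 1 promoter in the RefSeq table, so their 250 bases upstream of the annotated start are shown (build GRCm38.p6, plus strand, chr7:79052976-79053225 and chr13:89540386-89540635). Capitals mark matches, on either strand, to any of 5 motifs, which are a MEF2 core, a SOX core, a RUNX core, a TATA box and a GC box.
Acan: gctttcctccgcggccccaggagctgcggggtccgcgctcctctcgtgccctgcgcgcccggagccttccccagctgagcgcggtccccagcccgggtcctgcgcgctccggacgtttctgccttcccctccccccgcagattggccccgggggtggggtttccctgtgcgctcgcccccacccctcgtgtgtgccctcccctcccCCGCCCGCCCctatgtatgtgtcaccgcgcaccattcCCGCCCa
Hapln1: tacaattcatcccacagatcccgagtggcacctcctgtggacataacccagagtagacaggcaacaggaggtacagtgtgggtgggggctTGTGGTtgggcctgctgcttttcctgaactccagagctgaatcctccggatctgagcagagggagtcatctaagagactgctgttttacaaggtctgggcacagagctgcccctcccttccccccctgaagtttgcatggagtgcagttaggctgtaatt
The Acan window held GC boxes on the opposite strand that begin at -44, -40 and -7 from the start, the first 2 overlapping, and the Hapln1 window held 1 RUNX core at -160. Of 32851 promoter windows of the same length, 32.7% held the GC box, which was searched as GGGCGG. The RUNX core, which was searched as TGTGGT, stood in 14% of these windows. The TATA box was searched with the letters TATAAA and stood in 12.4%. The SOX core was searched with the letters ACAATG and stood in 10.7%, and the MEF2 core stood in 3.2%. Of the 10 listed genes, 6 had a promoter in the table.

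Comp, the cartilage thrombospondin, was high on the day 10 GFP array alone. Its level was 5.58 and 5.39 at day 10 and 5.63 and 5.65 at day 6 in SKO+HDAC7, and at 5.86 and 5.56 at day 10 and 5.56 and 5.45 at day 6 in SKO+MEF2C. In SKO+Flag it lay at 5.63 and 5.38 at day 10 and 5.55 and 5.74 at day 6, and with GFP at 7.07 at day 10 and 5.93 at day 6. SKO+Flag was 2.95-fold below GFP at day 10 (-1.56 ± 0.14, adjusted p = 8.42e-06), and at day 6 the difference was -0.28 ± 0.14 (adjusted p = 0.192). Of all genes, 26.9% were called at day 10 and 24.1% at day 6. The change between days was -1.28 ± 0.20 (adjusted p = 0.00401), where 5.06% of all genes were called, and it rests on 1 GFP array per day. The change was not called in a fit to these groups alone (adjusted p = 0.0645). Neither HDAC7 (-0.01 ± 0.08, adjusted p = 0.949) nor MEF2C (0.03 ± 0.08, adjusted p = 0.899) differed from SKO+Flag by the test.

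Matn2, the matrilin found in many connective tissues, showed the largest difference of the 8 genes between SKO+Flag and GFP. Its level was 6.10 and 6.08 at day 10 and 6.13 and 6.12 at day 6 in SKO+HDAC7, and at 5.995 and 6.002 at day 10 and 6.05 and 5.79 at day 6 in SKO+MEF2C. In SKO+Flag it lay at 6.03 and 5.998 at day 10 and 5.995 and 6.22 at day 6, and with GFP at 8.07 at day 10 and 7.93 at day 6. All SKO arrays lay within 5.79 to 6.22, well below both GFP arrays. SKO+Flag was 3.83-fold below GFP (-1.94 ± 0.08, adjusted p = 6.76e-09), SKO+HDAC7 3.71-fold (-1.89 ± 0.08, adjusted p = 7.82e-09) and SKO+MEF2C 4.12-fold (-2.04 ± 0.08, adjusted p = 6.06e-09). These comparisons share the same 2 GFP arrays, and 35.7%, 33.4% and 31.3% of all genes were called in SKO+Flag, SKO+HDAC7 and SKO+MEF2C against GFP. HDAC7 (0.04 ± 0.06, adjusted p = 0.731) and MEF2C (-0.10 ± 0.06, adjusted p = 0.403) did not pass the test against SKO+Flag. Without SKO+MEF2C day 6 replicate 1, Matn2 was higher in SKO+HDAC7 cells than in SKO+MEF2C cells by 0.21 (adjusted p = 0.0335), against 0.15 ± 0.06 with all arrays (adjusted p = 0.135).

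Mgp, the calcification inhibitor, varied most among the 8 genes and lay above the median on every array. Its level was 8.37 and 8.27 at day 10 and 8.39 and 8.69 at day 6 in SKO+HDAC7, and at 10.54 and 10.59 at day 10 and 9.47 and 9.36 at day 6 in SKO+MEF2C. In SKO+Flag it lay at 9.99 and 9.95 at day 10 and 9.38 and 9.36 at day 6, and with GFP at 10.69 at day 10 and 9.85 at day 6. At day 10 the order from high to low was GFP, SKO+MEF2C, SKO+Flag and SKO+HDAC7, with no overlap between vectors. At day 6 SKO+MEF2C and SKO+Flag overlapped between GFP above and SKO+HDAC7 below. Its range of 2.42 over the 14 arrays is reached or passed by 1.47% of all genes.

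The Mgp difference between SKO+HDAC7 and SKO+Flag was -1.65 ± 0.09 at day 10 (3.14-fold lower, adjusted p = 2.29e-06) and -0.83 ± 0.09 at day 6 (1.77-fold lower, adjusted p = 0.000644). Of all genes, 7.27% were called at day 10 and 4.58% at day 6. The HDAC7 effect changed between days by -0.82 ± 0.13 (adjusted p = 0.0449), where 0.125% of all genes were called. That call was lost under 11 of 17 alternatives, with adjusted p values up to 0.175 and differences between -0.97 and -0.67. It was lost without either SKO+Flag day 6 array (-0.83 and -0.81), SKO+Flag day 10 replicate 1 (-0.80), SKO+HDAC7 day 6 replicate 2 (-0.67) or either SKO+HDAC7 day 10 array (-0.87 and -0.77). SKO+MEF2C was 1.51-fold above SKO+Flag at day 10 (0.59 ± 0.09, adjusted p = 0.00232, where 7.01% of all genes were called), and at day 6 the difference was 0.05 ± 0.09 (adjusted p = 0.903). The change of the MEF2C effect was 0.54 ± 0.13 (adjusted p = 0.211), where 0.0853% of all genes were called. Against GFP, Mgp was 3.57-fold lower in SKO+HDAC7 (-1.84 ± 0.08, adjusted p = 8.54e-09), 1.51-fold lower in SKO+Flag (-0.60 ± 0.08, adjusted p = 9.59e-05) and 1.21-fold lower in SKO+MEF2C (-0.28 ± 0.08, adjusted p = 0.018). The last of these was not called without SKO+MEF2C day 6 replicate 2 (-0.25, adjusted p = 0.0549).

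Set against each other, the 2 added factors separated Mgp, Hapln1, Acan and Sox6. Of the 8 genes, 4 were lower in SKO+HDAC7 cells than in SKO+MEF2C cells and 0 were higher as the mean of both days, where 22.0% of all genes were called, 11.8% lower and 10.3% higher. At an unadjusted p under 0.05 there were 4 lower and 2 higher. Mgp was 2.95-fold lower (-1.56 ± 0.06, adjusted p = 3.07e-08) and Acan 1.86-fold lower (-0.90 ± 0.05, adjusted p = 5.64e-07), beside the Hapln1 and Sox6 differences given above. Sox5 was at 0.16 ± 0.06 (adjusted p = 0.0734), and at 0.22 without SKO+HDAC7 day 6 replicate 2 (adjusted p = 0.0224).

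Between day 6 and day 10 the genes moved in different directions within the SKO groups, as the plot of day differences shows. In SKO+HDAC7 3 genes were lower at day 10 and 0 higher (14.6% of all genes called, 6.70% lower and 7.86% higher). In SKO+MEF2C 1 was higher and 1 lower (3.08% of all genes called, 1.85% higher and 1.23% lower), and in SKO+Flag 1 was higher and 2 lower (8.08% called, 3.75% higher and 4.33% lower). Mgp rose in SKO+MEF2C by 1.15 ± 0.09 (2.21-fold, adjusted p = 0.000102) and in SKO+Flag by 0.60 ± 0.09 (1.52-fold, adjusted p = 0.00171), and its difference in SKO+HDAC7 was -0.22 ± 0.09 (adjusted p = 0.137). Without SKO+HDAC7 day 6 replicate 1 the last was -0.37 (adjusted p = 0.0208). On the single GFP arrays Mgp lay at 10.69 at day 10 and 9.85 at day 6, with no test.

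Acan was lower at day 10 in all 3 SKO groups, with differences of -0.41 ± 0.08 in SKO+HDAC7 (adjusted p = 0.00449), -0.39 ± 0.08 in SKO+MEF2C (adjusted p = 0.0177) and -0.39 ± 0.08 in SKO+Flag (adjusted p = 0.00868). These Acan calls were lost without SKO+HDAC7 day 10 replicate 2 (-0.35, adjusted p = 0.0501), without SKO+MEF2C day 6 replicate 2, day 10 replicate 1 or day 10 replicate 2 (-0.299, -0.367 and -0.417) and without SKO+Flag day 6 replicate 2 (-0.33, adjusted p = 0.079). Hapln1 was lower at day 10 in SKO+HDAC7 (-0.57 ± 0.12, adjusted p = 0.00861) and in SKO+Flag (-0.72 ± 0.12, adjusted p = 0.00331), and lay at -0.13 ± 0.12 in SKO+MEF2C (adjusted p = 0.784). The SKO+HDAC7 call was lost without day 10 replicate 2 (-0.47). In a fit to the compared groups alone, the SKO+Flag calls of Hapln1 (adjusted p = 0.0739) and Acan (adjusted p = 0.0711) were lost. Sox9 was lower at day 10 in SKO+HDAC7 (-0.22 ± 0.06, adjusted p = 0.0392), which was lost without any 1 of its 4 arrays (-0.17 to -0.26). That call was also lost with the intensity-dependent robust prior (adjusted p = 0.116) and with median centring (adjusted p = 0.0553). A fit to the compared groups alone lost it too (adjusted p = 0.0811). Sox6 in SKO+HDAC7 was at -0.21 ± 0.10 (adjusted p = 0.188) and passed without day 10 replicate 1 (-0.36, adjusted p = 0.0396).

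**Figure D3:**
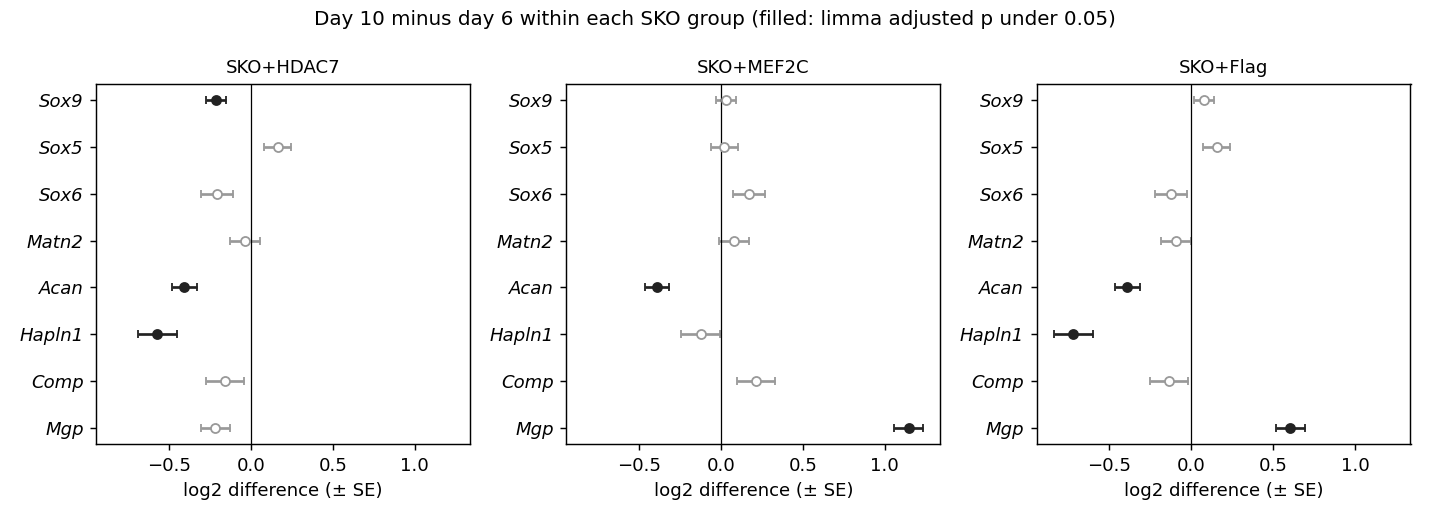
Each point is the log2 difference of day 10 from day 6 within an SKO group, with its standard error, and filled points have a limma adjusted p under 0.05. Acan lies left of 0 in all 3 panels, while Mgp lies right of 0 in SKO+MEF2C and SKO+Flag.

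Other regulators and signals of cartilage moved in part with the same vectors. Of 15 measured genes of 16 listed, 4 fell and 2 rose with HDAC7 (median -0.05), 1 fell and 4 rose with MEF2C (median 0.09), and 7 fell and 3 rose in SKO+Flag against GFP (median -0.21). The medians over all genes were 0.02, 0.01 and -0.04, and 10.9%, 10.3% and 35.7% of all genes were called. A count near these shares, here or in a list below, is no result about that list. Fgf18, a growth factor of the growth plate, was lower with HDAC7 (-1.06 ± 0.06, adjusted p = 1.38e-06), higher with MEF2C (0.55 ± 0.06, adjusted p = 0.000147) and higher in SKO+Flag cells than in GFP cells (1.20 ± 0.07, adjusted p = 1.53e-07). Trps1, a zinc finger repressor of chondrocytes, fell with HDAC7 by 0.47 and Foxc1 fell by 0.36, while Ihh, the hedgehog ligand of the growth plate, rose by 0.36 with HDAC7 and by 0.33 with MEF2C. Pth1r, the receptor for parathyroid hormone and its related peptide, rose with MEF2C by 0.36 ± 0.07 (adjusted p = 0.0101). Sox13, the third SOXD gene beside Sox5 and Sox6, was higher with HDAC7 (0.21 ± 0.04, adjusted p = 0.00906), lower with MEF2C (-0.26 ± 0.04, adjusted p = 0.00245) and higher in SKO+Flag against GFP (0.50 ± 0.05, adjusted p = 1.81e-05). Fgfr3 was higher in SKO+Flag cells than in GFP cells by 0.72, and Zfp521 and Ror2 were lower by -0.87 and -0.71.

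Among 20 further cartilage matrix genes, all measured, 2 fell and 1 rose with HDAC7 (median 0.06), 2 fell and 4 rose with MEF2C (median 0.03), and 9 fell and 4 rose in SKO+Flag against GFP (median -0.16). The shares of all genes called were 10.9%, 10.3% and 35.7% in the same order. Cspg4, a membrane proteoglycan, was lower with HDAC7 (-1.10 ± 0.06, adjusted p = 1.71e-06). Papss2, which makes the sulfate donor for proteoglycans, fell with HDAC7 by 0.44 and rose with MEF2C by 0.37. Vcan, a relative of Acan, rose with MEF2C by 0.38 ± 0.09 (adjusted p = 0.0221). Cnmd (chondromodulin) ran the other way, higher with HDAC7 by 0.23 and lower with MEF2C by -0.36, and Xylt1, which starts glycosaminoglycan chains, was also lower with MEF2C, by -0.36. Thbs4, a relative of Comp, was lower in SKO+Flag cells than in GFP cells by -1.78 ± 0.10 (adjusted p = 1.46e-07), and the sulfotransferase gene Chst11 by -1.06. Thbs4 lay below the median on 12 of 14 arrays. In the same comparison Vcan was also lower (-0.67 ± 0.11, adjusted p = 0.00059), and Cspg4 was higher (0.65 ± 0.08, adjusted p = 4.15e-05). Of these 20 genes 12 to 14 lay below the median of any 1 array.

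Of 22 measured family members of the 10 genes, of 23 listed, 2 fell and 2 rose with HDAC7 (median 0.07). With MEF2C 1 fell and 4 rose (median 0.06), and in SKO+Flag against GFP 13 fell and 1 rose (median -0.23). Among all genes 10.9%, 10.3% and 35.7% were called in these comparisons. Thbs1, a thrombospondin like Comp, was lower with HDAC7 (-0.87 ± 0.04, adjusted p = 3.86e-07) and higher with MEF2C (0.40 ± 0.04, adjusted p = 7.86e-05), where Comp itself did not pass the test. Thbs2 was lower with HDAC7 by -0.22, and Thbs3 lower in SKO+Flag cells than in GFP cells by -1.005. Bcan, like Acan a hyaluronan-binding proteoglycan, was at 0.17 with HDAC7 (adjusted p = 0.0447), with all its values below the array medians.

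Mineralisation genes moved in both directions. Of 19 measured genes of 22 listed, 7 fell and 1 rose with HDAC7 (median -0.03), where 10.9% of all genes were called. With MEF2C 2 fell and 4 rose (median 0.07), where 10.3% of all genes were called. In SKO+Flag against GFP 8 fell and 5 rose (median -0.10), where 35.7% of all genes were called. Alpl, the alkaline phosphatase that frees phosphate for mineral, moved opposite to Mgp in the HDAC7 comparison: it rose by 0.36 ± 0.05 with HDAC7 (adjusted p = 0.00114), fell by 0.58 with MEF2C (adjusted p = 4.36e-05) and was higher in SKO+Flag cells than in GFP cells by 0.74 ± 0.06 (adjusted p = 2.87e-06). The phosphate transporter gene Slc20a2 was lower with HDAC7 (-0.68 ± 0.04, adjusted p = 2.92e-06), higher with MEF2C (0.25 ± 0.04, adjusted p = 0.00305) and higher in SKO+Flag against GFP (0.59 ± 0.05, adjusted p = 3.76e-06). Anxa5, a calcium-binding annexin of matrix vesicles, fell with HDAC7 by 0.44. Dmp1, a gene of osteocytes, rose with MEF2C by 0.44 ± 0.07 (adjusted p = 0.00291), and Ahsg (fetuin A), a circulating inhibitor of calcification, fell by 0.40. Dmp1 and Ahsg each lay below the median on 13 of 14 arrays.

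MGP must be carboxylated on glutamate to work, and genes of that step were on the list. Gas6, another protein carboxylated this way, was lower in SKO+Flag cells than in GFP cells (-1.39 ± 0.10, adjusted p = 6.42e-07) and lower with HDAC7 (-0.47 ± 0.08, adjusted p = 0.00347). Vkorc1, which recycles vitamin K, was lower in SKO+Flag cells than in GFP cells by -0.92 ± 0.08 (adjusted p = 2.42e-06). Ggcx, the carboxylase itself, named here after its values were seen, was lower in SKO+Flag cells than in GFP cells (-0.48 ± 0.06, adjusted p = 8.67e-05) and with HDAC7 (-0.20 ± 0.05, adjusted p = 0.0247).

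**Figure D4:**
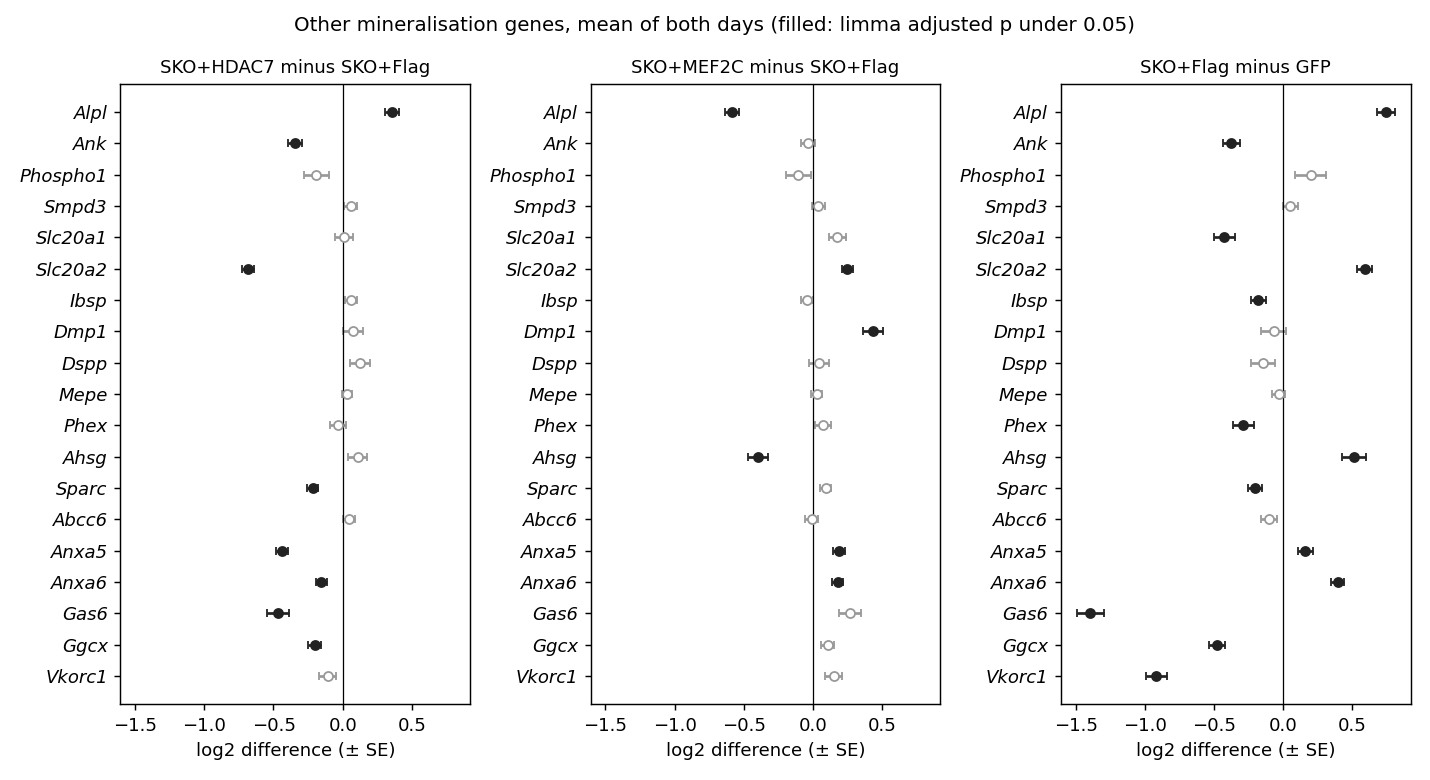
Log2 differences with standard errors of 19 further mineralisation genes, as the mean of both days, are plotted for 3 comparisons, filled where the limma adjusted p is under 0.05. With HDAC7 Alpl is the filled point right of 0, and 7 genes, among them Slc20a2 and Gas6, are filled left of 0.

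Bone regulators rose in part with MEF2C. Of 14 measured genes of 15 listed, 1 fell and 0 rose with HDAC7 (median -0.01), where 10.9% of all genes were called. With MEF2C 0 fell and 6 rose (median 0.16), where 10.3% of all genes were called. In SKO+Flag against GFP 3 fell and 1 rose (median -0.12), where 35.7% of all genes were called. Tnfrsf11b, which encodes osteoprotegerin, a decoy receptor that restrains osteoclasts, was lower with HDAC7 (-0.67 ± 0.05, adjusted p = 1.17e-05) and higher in SKO+Flag cells than in GFP cells (2.33 ± 0.06, adjusted p = 3.03e-10). Twist1 and Twist2, mesenchymal factors that restrain RUNX2, rose with MEF2C by 0.37 and 0.34. Sp7, an osteoblast transcription factor, rose with MEF2C by 0.26 ± 0.06 (adjusted p = 0.0259) and Sost by 0.22, but Sp7 lay below the median on every array. In SKO+Flag against GFP, Twist2 was lower (-1.11 ± 0.08, adjusted p = 5.78e-07), and so were Twist1 (-0.59 ± 0.06, adjusted p = 1.1e-05) and Dlx5 (-0.43 ± 0.07, adjusted p = 0.00044). Dlx5 lay below the median on 9 of 14 arrays.

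The 10 collagen and other chondrocyte markers did not move as a group with HDAC7 or MEF2C. With HDAC7 1 fell and 1 rose, and with MEF2C 1 fell and 1 rose, where 10.9% and 10.3% of all genes were called. In SKO+Flag against GFP 5 fell and 2 rose, where 18.2% of all genes were lower and 17.5% higher. The median in that comparison was -0.18, against -0.04 over all genes. Col2a1, the main collagen of cartilage and a target of SOX9, was lower with HDAC7 (-0.39 ± 0.06, adjusted p = 0.00264) and was at 0.02 ± 0.06 with MEF2C (adjusted p = 0.916). Col10a1, the collagen of hypertrophic cartilage, was higher with MEF2C (0.86 ± 0.08, adjusted p = 5.01e-05) and was at -0.02 ± 0.08 with HDAC7 (adjusted p = 0.904). The Col10a1 group means were 6.31 at day 10 and 6.77 at day 6 in SKO+MEF2C, 5.53 and 5.79 in SKO+HDAC7, 5.50 and 5.86 in SKO+Flag, and 6.001 and 6.06 with GFP.

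For the 7 genes that ranged over at least 1 on the log2 scale, the genes with the most similar profile were found from the root mean square difference over the 14 arrays after each gene was centred on its mean. Col10a1 was nearest to Acan (0.13), before Nr4a3 and Npy1r (both 0.16). Sox9 was nearest to Col16a1 (0.070), Ednrb (0.085) and Cars (0.086), and Sox6 to Thsd1 (0.11), Akap13 (0.11) and Abhd17c (0.12). Hapln1 was nearest to Glcci1, Fbxo32 and Snap91 (all 0.14), and Comp to Pgm5 (0.13), Mylk (0.14) and Isoc1 (0.14). Matn2 was nearest to Steap3 (0.13), Lhfpl2 (0.15) and Lsp1 (0.16). Mgp had no close neighbour, with Atxn1 at 0.41, Dennd4a at 0.45 and Col11a1 at 0.46. Genes that differ mostly between SKO and GFP arrays are brought together by this measure.

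Markers of other cell types moved with the same vectors, and their part in the results was not tested. Among all genes 10.9% were called with HDAC7, 10.3% with MEF2C and 35.7% in SKO+Flag against GFP. Of 6 smooth muscle markers 4 fell with HDAC7 and 6 rose with MEF2C, and their mean log2 value ranged over 6.48 to 7.53 in SKO+HDAC7, 8.06 to 8.75 in SKO+MEF2C, 7.10 to 8.12 in SKO+Flag and 9.18 to 9.34 with GFP. Of 8 epithelial markers 6 rose with HDAC7 and 5 fell with MEF2C, with ranges of 6.16 to 7.35, 5.65 to 6.02, 5.84 to 6.61 and 5.61 to 5.75 in the same order, and Krt5 lay below the median on 14 of 14 arrays. The fibroblast markers ranged over 8.77 to 8.98, 8.87 to 8.96, 8.83 to 8.91 and 9.64 to 10.25, and 10 of 12 were lower in SKO+Flag cells than in GFP cells. Of these 12 markers 4 rose and 5 fell with HDAC7, so their mean joins opposite moves. With MEF2C 2 of them rose and 0 fell. Of 10 macrophage and blood markers, 8 lay below the median on 14 of 14 arrays, among them Ptprc, Csf1r, Adgre1 and Spi1, whereas Itgam lay below it on 5 and Cd68 on 1. Of these 10 markers 1 rose and 0 fell with HDAC7, and 2 rose and 1 fell in SKO+Flag against GFP. Cd68 was higher with HDAC7 (0.63 ± 0.07, adjusted p = 0.000135) and in SKO+Flag against GFP (0.55 ± 0.08, adjusted p = 0.00027). Itgam was higher in SKO+Flag against GFP (1.0003 ± 0.06, adjusted p = 1.89e-07).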

How the data were processed

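RNA of mouse embryonic fibroblasts was hybridised to 14 Affymetrix arrays. The authors deposited log2 values for each probe set, and the submitters' processing notes name RMA and Partek without versions. No filter or new scaling was applied to them. A genome build is not given in the sources used here.

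Of 28815 probe sets, 21780 had 1 gene symbol, 1605 several and 5430 no name here. Symbols were checked through Entrez IDs against RefSeq (GRCm38.p6), which matched 21689 and changed 0. A gene was represented by its probe set with the highest mean (19935 genes). In R 4.3.3 with limma 3.58.1, lmFit and eBayes took the 14 arrays as 8 groups, with 6 residual and 4.71 prior degrees of freedom, and p-values were adjusted by Benjamini-Hochberg over all genes. The number of arrays limits the precision. The procedure was tested on simulated data.

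Members and lists were chosen with earlier results of these data known. All members are described, and up to 4 called genes per list and comparison are named by size of difference. Promoter sequences are from RefSeq (GRCm38.p6). Alternatives were an intensity-dependent robust prior, quantile normalization, a fit to only the groups compared, the mean over probe sets, median centring, genes above the median level, array weights, the experiment number as a replicate block, and leaving out arrays.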

Additional observations from a re-analysis of the deposited data

Results flagged for a closer look

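The effect of HDAC7 on Mgp differed between days: the difference from SKO+Flag was -1.65 at day 10 and -0.83 at day 6, a change of -0.82 ± 0.13 (limma adjusted p = 0.0449). All 4 SKO+HDAC7 arrays lay below all 4 SKO+Flag arrays. The change was not called under 11 of 17 alternatives.

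The difference of Comp between SKO+Flag and GFP also changed between days, by -1.28 ± 0.20 (limma adjusted p = 0.00401), with -1.56 at day 10 and -0.28 at day 6. Both SKO+Flag arrays lay below the GFP array on each day. The comparison rests on 1 GFP array per day.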

How the results depend on the processing

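Of 60 calls among the 8 genes and 18 comparisons, 0 changed direction under any alternative run. Over 1928 values for these genes, 1869 kept their side of the threshold, 41 lost a call and 18 gained one. For genes above the median level Acan, Hapln1, Comp and Sox5 were not tested, so that the count of called genes was 1 for MEF2C as the mean of both days, 0 at day 6 and 1 at day 10, 4 for SKO+Flag and 4 for SKO+MEF2C against GFP, 2 for HDAC7 against MEF2C, 1 for each of the 3 day comparisons, and 0 for the change of the SKO+Flag difference from GFP. A fit to the compared groups alone, with fewer arrays, gave 1 for HDAC7 at day 10, 1 for the day comparison in SKO+Flag, and 0 for the changes of the HDAC7 effect and of the SKO+Flag difference from GFP. The robust prior gave 2 for the last. For the change of the HDAC7 effect, median centring and array weights gave 0. Leaving out 1 array gave 1 for HDAC7 at day 6, 1 to 2 at day 10, 0 to 3 for the day comparison in SKO+HDAC7, 1 to 2 in SKO+MEF2C, 2 to 3 in SKO+Flag, 2 to 3 for MEF2C at day 10, 0 to 1 for the changes of the HDAC7 and of the MEF2C effect, and 1 to 2 for the change of the SKO+Flag difference from GFP. With all arrays, 0 of the 8 genes were called by limma for the change of the MEF2C effect, and 2 passed at an unadjusted p under 0.05. Mean-of-days comparisons with GFP could not be fitted without a GFP array.

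The experiment numbers are not shown to pair the arrays: over 6 same-day pairs of groups, the correlation of deviations of arrays with number 1 ran from -0.09 to 0.18, and 3 exceeded 0.1. With the number as a replicate block over both days or within each day, the change of the HDAC7 effect on Mgp stayed at -0.82 with adjusted p values of 0.082 and 0.0976, so that 0 of the 8 genes were called. The block changed no other call among the 8 genes. Over all genes the block gave 15 calls in each form for the change of the HDAC7 effect, where 25 were called without it, and 12 and 11 for that of the MEF2C effect, against 17. Detection is unknown for the values of Comp, Acan and Hapln1 below the array medians.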

Other observations

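Tendon markers, which share a mesenchymal origin with cartilage, differed in direction from one another. Mkx, a tendon transcription factor, was higher in SKO+Flag than in GFP by 2.38 ± 0.10 (limma adjusted p = 6.04e-09), whereas Tnmd (tenomodulin) was lower by -2.36 ± 0.08 and Scx (scleraxis) by -0.62 ± 0.08. Tnmd lay below the array median on 8 of 14 arrays. With HDAC7 Mkx was lower by -0.78 ± 0.08, and with MEF2C Scx was higher by 0.28 ± 0.06 (limma adjusted p = 0.0166). Of 6 fat cell markers 0 were called by limma with HDAC7 or MEF2C, where 10.9% and 10.3% of all genes were called. In SKO+Flag 3 were lower than in GFP, where 18.2% of all genes were lower. Of the fat cell markers, Adipoq, Fabp4 and Lep lay below the array median on 14 of 14 arrays. Pparg and Cidec lay below it on 13 and Plin1 on 9, and detection of such values is unknown.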
